A study of Mus musculus with 7 samples.

Results

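The comparison described here sets 1 RNA sequencing library of neural cells exposed to DDT against 1 unexposed control library, out of 7 libraries in the series. Both were made from the mouse embryonic stem cell line B6G-2 (wild type), which was grown as embryoid bodies over 6 days and then turned into neural progenitors (in bFGF plus EGF). The day 14 progenitors were given BrainPhys medium with B27 and cultured for 1 day with or without the insecticide. Neither a dose nor a solvent control is stated in the labels, whose tissue entry reads brain for cells of stem cell origin. The other 5 libraries, exposed to chlorpyrifos, rotenone, carbaryl, deltamethrin or imidacloprid for the same time, served as the measure of spread. The 2 libraries were taken by sample title, while the gene lists were chosen with earlier results of these data known. The DDT library listed 91070 distinct transcript-structure events and the control library 90960, and 79172 were listed in both, among 126309 listed in any library.

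DDT is an organochlorine insecticide best known for holding voltage-gated sodium channels open. Cells that sense amino acid shortage, misfolded protein or other stress phosphorylate the initiation factor eIF2, which slows translation and raises ATF4, a transcription factor for amino acid synthesis, amino acid import and tRNA charging. Cholesterol and fatty acid synthesis are controlled together by the SREBP factors, which are released to the nucleus when membrane sterol falls.

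Values are FPKM, sequenced fragments scaled to length and library size, for each transcript start, transcript end, skipped exon, retained intron or alternative exon. A gene's level is the mean of its start total and end total, used where the 2 totals, each averaged over 7 libraries, were within 0.3 on the log2 scale and their mean was at least 1 FPKM. In a single library the 2 totals can differ more, and where their differences from control are far apart both are given. Every difference is DDT minus control on the log2(FPKM + 1) scale unless another unit is named, and "called" means 2-fold or more. Each exposure has 1 library, so the differences lack a replicate check and p-values are left out. The read depth is unknown.

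The labelled cell type could be checked only in part. Of the progenitor markers, Vim stood at 1211 FPKM with DDT and 1062 in control, Sox9 at 23.8 and 22.7, and Ptprz1 at 97.2 and 95.9. Among neuronal markers the doublecortin gene Dcx stood at 24.9 and 26.4. Astrocyte markers were mixed: Glul and Aldoc were at 148 and 80.2 FPKM in control, while Gfap, Aqp4 and S100b were under 1 FPKM on average, as were the stem cell genes Pou5f1 and Nanog. Of the 8 microglia and blood markers 7 had no start or end event and P2ry12 averaged under 1 FPKM. Progenitor, neuronal and some astrocyte markers were thus present.

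Few genes differed, and about as many as for any other insecticide. Of 6270 genes used, 49 were called higher with DDT, 0.781% of them, and 60 were called lower, 0.957%. The other exposed libraries had 101 to 133 called genes against the same control, and DDT had 109. Any difference at all was upward for 52.4% of genes and downward for 47.6%, with a median of 0.01, and 93.2% of genes lay within 1.5-fold. DDT was the highest of the 7 libraries for 17.4% of genes and the lowest for 15.0%. The counts depended on the settings: 106 higher and 110 lower with a pseudocount of 0.1, and 23 higher and 47 lower against the median of the 5 other exposed libraries.

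Genes of the integrated stress response were mostly higher with DDT. Of 24 listed genes 11 could be used, and 10 of these were higher and 1 lower, with a median of 0.40 beside 0.01 over all genes. In the other exposed libraries the list's median ran from -0.07 to 0.21. Over all genes, the base for this and the later lists, DDT was the highest library for 17.4% and the lowest for 15.0%. Called higher were 0.781% of all genes and called lower 0.957%. In this list DDT was the highest library for 5 of the 11, and 2 were called, Chac1 and Gdf15. Gdf15 is in these counts and in the median of 0.40, though it passed the filter on mean FPKM only through the DDT library. Over the 10 members that also averaged at least 1 FPKM in the 5 other exposed libraries, which leaves out Gdf15, the median was 0.26. Over the 8 members averaging at least 5 FPKM it was 0.10, a value inside the range of the other exposed libraries over all 11. The medians of the other libraries were not recomputed for these smaller sets. Against the median of the 5 other exposed libraries the list of 11 stood at 0.14.

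Atf4 (chromosome 15, 80255184 to 80257541), the transcription factor at the centre of the response, stood at 134 FPKM with DDT and 102 in control. It was at 110 with chlorpyrifos, 118 with rotenone, 102 with carbaryl, 103 with deltamethrin and 101 with imidacloprid. The DDT value was the highest, at a difference of 0.40. Chac1, an enzyme that breaks down glutathione, stood at 8.49 FPKM with DDT and 2.10 in control. Its other values were 4.33 with chlorpyrifos, 6.52 with rotenone, 2.49 with carbaryl, 4.42 with deltamethrin and 3.13 with imidacloprid. Chac1 was thus above control in all 6 exposed libraries and highest with DDT (difference 1.61).

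Gdf15, a secreted stress hormone, stood at 6.93 FPKM with DDT, 0.895 in control, 2.24 with chlorpyrifos and 0.751 with imidacloprid, and it was not listed with rotenone, carbaryl or deltamethrin. Its difference from control was 2.07, and it passed the filter on mean FPKM through the DDT library. The pseudokinase Trib3, which restrains ATF4, stood at 2.18 FPKM with DDT and 0.656 in control (0.94), but rotenone gave 2.14 and chlorpyrifos 1.95. Sesn2, a regulator of the mTORC1 growth pathway, stood at 34.7 against 24.5 (0.48), and elsewhere at 25.9 to 30.9. Vldlr, a lipoprotein receptor, stood at 6.78 against 4.28 (0.56), and the other 5 were at 6.64 to 9.12, so for this gene it was the control that stood apart.

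Other regulators of the pathway went both ways. The eIF2 kinase genes Eif2ak4 (5.99 FPKM against 5.38) and Eif2ak1 (13.6 against 13.5) differed by 0.13 and 0.01, the eIF2 subunit gene Eif2s1 by -0.05 and the eIF2 phosphatase subunit gene Ppp1r15b by 0.04. Ddit4, an mTORC1 inhibitor, differed by 0.08. The start total of the eIF2 kinase gene Eif2ak3 was the lowest of 7 libraries, at 8.13 FPKM against 9.99 (8.61 to 9.76 elsewhere). The end total of Ppp1r15a, an eIF2 phosphatase subunit gene, was the highest, at 6.78 against 4.79 (5.75 to 6.66 elsewhere). For another 7 members only the larger of the start and end totals could be given, which was higher with DDT in 6 and the highest of 7 libraries in 5. Among them was the start total of Atf5, a related factor, at 46.7 FPKM against 25.3 (22.1 to 40.2 elsewhere), while its lower end total differed by -0.04. Eif4ebp1, a translation inhibitor gene, had a start total 0.51 higher and an end total that differed by -1.84.

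**Figure D1:**
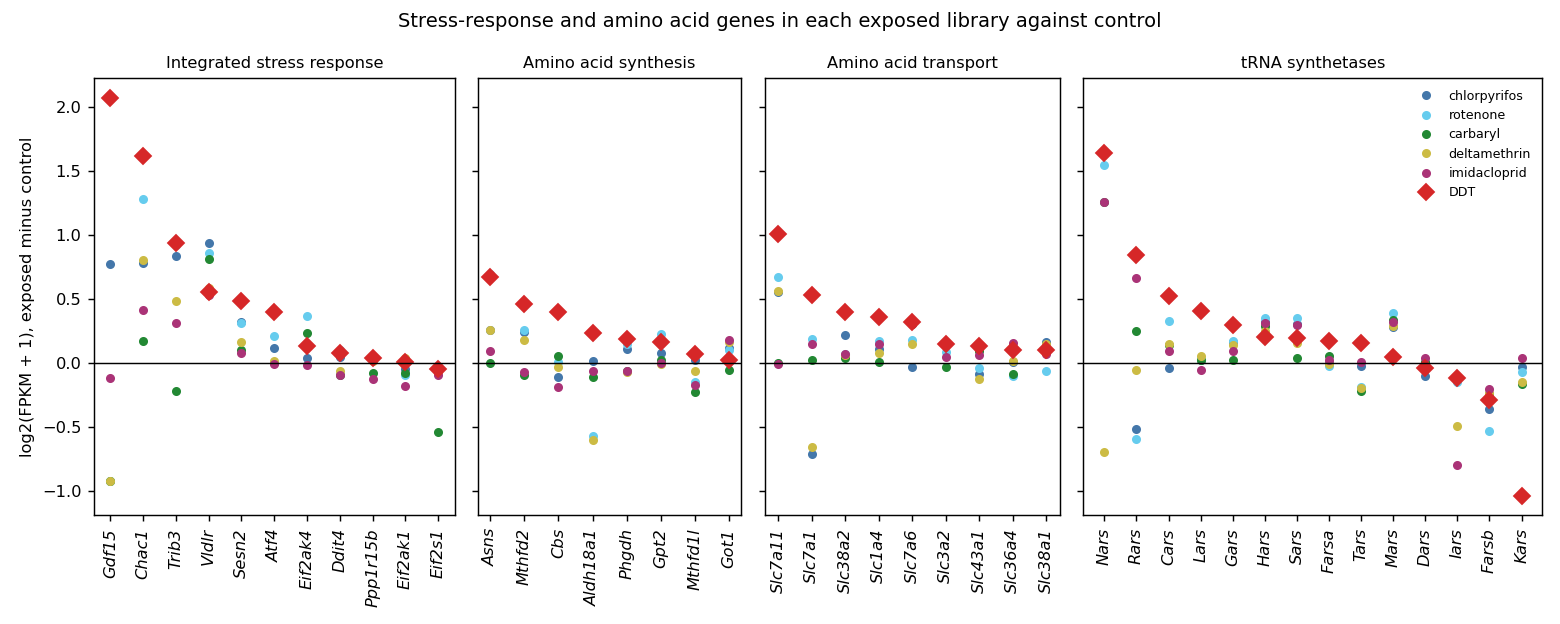
Each point is a gene's log2(FPKM + 1) in 1 exposed library minus control (vertical axis) for the used members of 4 lists (horizontal axis), with DDT as red diamonds and the other 5 insecticides as circles. For Gdf15, Chac1 and Slc7a11 the diamond lies above the circles, at 2.07, 1.61 and 1.01, and Gdf15 passed the filter on mean FPKM through DDT. Gdf15 was not listed in 3 libraries, which share the point at the bottom.

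Genes for making amino acids followed the same direction. All 8 used members of 18 were higher with DDT, with a median of 0.21, and DDT was the highest library for 5. The other exposed libraries had medians from -0.06 to 0.13. None was called. Asns, which makes asparagine, stood at 52.8 FPKM with DDT and 32.8 in control (0.67), and at 39.5 with chlorpyrifos, 53.6 with rotenone, 32.8 with carbaryl, 39.4 with deltamethrin and 35.2 with imidacloprid. Rotenone and DDT were thus alike for Asns. Cbs, which turns homocysteine towards cysteine, stood at 54.5 against 41.2 (0.39), above the 36.2 to 42.8 of the other exposed libraries. Mthfd2, a mitochondrial one-carbon enzyme, stood at 47.8 against 34.6 (0.46), and Phgdh, the first enzyme of serine synthesis, at 179 against 156 (0.19). The start total of Pycr1, which makes proline, was 9.18 FPKM against 1.66, but 8.43 with rotenone, and its lower end total differed by -0.11.

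Amino acid transporters were higher in 9 of 9 used members of 14, with a median of 0.32, and DDT was the highest library for 6. The other exposed libraries had medians from 0.02 to 0.11, and against their median the list stood at 0.17. Of 4 more members with only a larger end total, 3 were higher and 1 lower. Slc7a11, which imports cystine, was the called member, at 4.56 FPKM with DDT and 1.76 in control (1.01). It was at 3.05 with chlorpyrifos, 3.39 with rotenone, 1.76 with carbaryl, 3.07 with deltamethrin and 1.75 with imidacloprid. The importers of neutral amino acids Slc38a2 (48.1 FPKM against 36.3, 0.40) and Slc1a4 (28.2 against 21.7, 0.36) were above the 37.3 to 42.3 and 21.9 to 24.5 of the other exposed libraries. Slc7a1, which imports arginine and lysine, stood at 19.9 against 13.5 (0.53), with 7.85 to 15.5 elsewhere.

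Cytosolic tRNA synthetases, which charge tRNA with amino acids, were higher in 10 of 14 used members of 20, with a median of 0.18. The other exposed libraries had medians from -0.01 to 0.07, and against their median the list stood at 0.09. Of 5 more members with only a larger end total, 2 were higher and 3 lower. Cars stood at 23.3 FPKM with DDT and 15.9 in control (0.52), Gars at 97.6 and 79.3 (0.30), and Lars at 35.3 and 26.5 (0.40), each the highest of 7. Kars went the other way, at 36.5 against 75.7 (-1.03), and elsewhere at 67.5 to 77.6, but its start total differed by -0.24 and its end total by -2.96. Nars was called higher at 68.2 against 21.2, but the other libraries spread from 12.7 to 67.9.

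To show where the ATF4 element lies in these genes, RefSeq promoter windows (GRCm38.p6, 250 bases before to 50 after the start) were searched on both strands for TGATGNAA, the core that ATF4 and C/EBP partners are known to bind. Of all 32851 windows 3.97% held it, and of the 68 windows of the 58 matched genes on the 4 lists above 17 did, 25.0%. All matched members entered, whatever their difference with DDT. The lists follow known ATF4 functions, so the larger share was built in and is not a result about DDT. The matched genes included Chac1, Slc7a11, Asns and Vldlr. It was also found in Got1, an aminotransferase gene that differed by 0.02, so a match also occurred where the level hardly differed. A match is a description, not a known site. The windows below are read on the strand of the gene, with the match in capitals, and each gene name is followed by its position.
Chac1, chr2:119351023-119351082, plus strand, match at bases -193 to -186: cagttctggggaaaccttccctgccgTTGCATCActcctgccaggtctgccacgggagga
Slc7a11, chr3:50443646-50443705, minus strand, first match at bases -66 to -59 and the second, in the opposite orientation, at bases -47 to -40: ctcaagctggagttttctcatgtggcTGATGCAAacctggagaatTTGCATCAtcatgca
Asns, chr6:7693210-7693258, minus strand, match at bases -23 to -16: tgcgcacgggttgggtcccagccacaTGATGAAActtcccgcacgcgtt
Vldlr, chr19:27216794-27216853, plus strand, match at bases -200 to -193: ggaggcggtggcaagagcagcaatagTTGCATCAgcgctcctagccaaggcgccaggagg
Got1, chr19:43524674-43524733, minus strand, match at bases -102 to -95: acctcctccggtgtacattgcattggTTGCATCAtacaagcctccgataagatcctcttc

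The endoplasmic reticulum folding genes, which cells switch on when unfolded protein collects there, were higher in 14 of 16 used members of 23, but by little, with a median of 0.11. DDT was the highest library for 10 of 16. The medians elsewhere were -0.04 to 0.09. The chaperone Hspa5 stood at 264 FPKM against 260 (0.02) and the co-chaperone Dnajb9 at 7.11 against 5.29 (0.37). Sel1l, which takes part in the removal of misfolded protein, stood at 23.7 against 18.7 (0.33). Pdia6 was lower at 42.8 against 72.6, with 43.0 with chlorpyrifos.

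Cholesterol synthesis genes were lower with DDT. All 11 used members of 21 were lower, with a median of -0.40, and DDT was the lowest library for 10 of 11. In the other exposed libraries the list's median ran from -0.04 to 0.07. Against the median of the 5 other exposed libraries the DDT median was -0.49. One member, Msmo1, was called.

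Hmgcs1 (chromosome 13, 119690379 to 119708260), an early enzyme of the mevalonate pathway, stood at 181 FPKM with DDT and 254 in control. It was at 246 with chlorpyrifos, 299 with rotenone, 243 with carbaryl, 268 with deltamethrin and 264 with imidacloprid. The DDT value was below all others, at a difference of -0.49. Lss, which closes the sterol rings, stood at 15.3 FPKM with DDT and 27.5 in control, and at 28.8 with chlorpyrifos, 34.5 with rotenone, 32.2 with carbaryl, 27.7 with deltamethrin and 29.99 with imidacloprid. Lss differed by -0.81, again apart from every other library. Acat2, which makes acetoacetyl-CoA, stood at 51.6 FPKM with DDT and 99.7 in control (-0.94), and at 81.6 with chlorpyrifos, 103 with rotenone, 84.7 with carbaryl, 93.3 with deltamethrin and 101 with imidacloprid. Its start total differed by -1.90 and its end total by -0.36.

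Msmo1, a sterol methyl oxidase gene, differed most in the list, at 42.1 FPKM against 100.4 (-1.23), yet chlorpyrifos gave 39.5 and the other 4 gave 73.8 to 89.9. The late-step enzymes also differed. Sc5d stood at 14.8 against 20.5 (-0.44) and Nsdhl at 33.7 against 44.95 (-0.40), each below all 6 other libraries. Sqle, the squalene epoxidase gene, differed least at 81.3 against 90.5 (-0.15), while the other exposed libraries were at 90.9 to 95.0. For 8 more members only the larger end total could be given, which was lower with DDT in 7 and the lowest of 7 libraries in 5. The start total of Fdps, which makes farnesyl diphosphate, was 94.6 FPKM against 175, with 126 to 175 elsewhere, while its lower end total differed by 0.01. That of Idi1 was 65.3 against 97.9, with 87.0 to 95.3 elsewhere. The exception was the end total of Fdft1, at 41.5 against 22.1 (18.5 to 58.9 elsewhere).

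**Figure D2:**
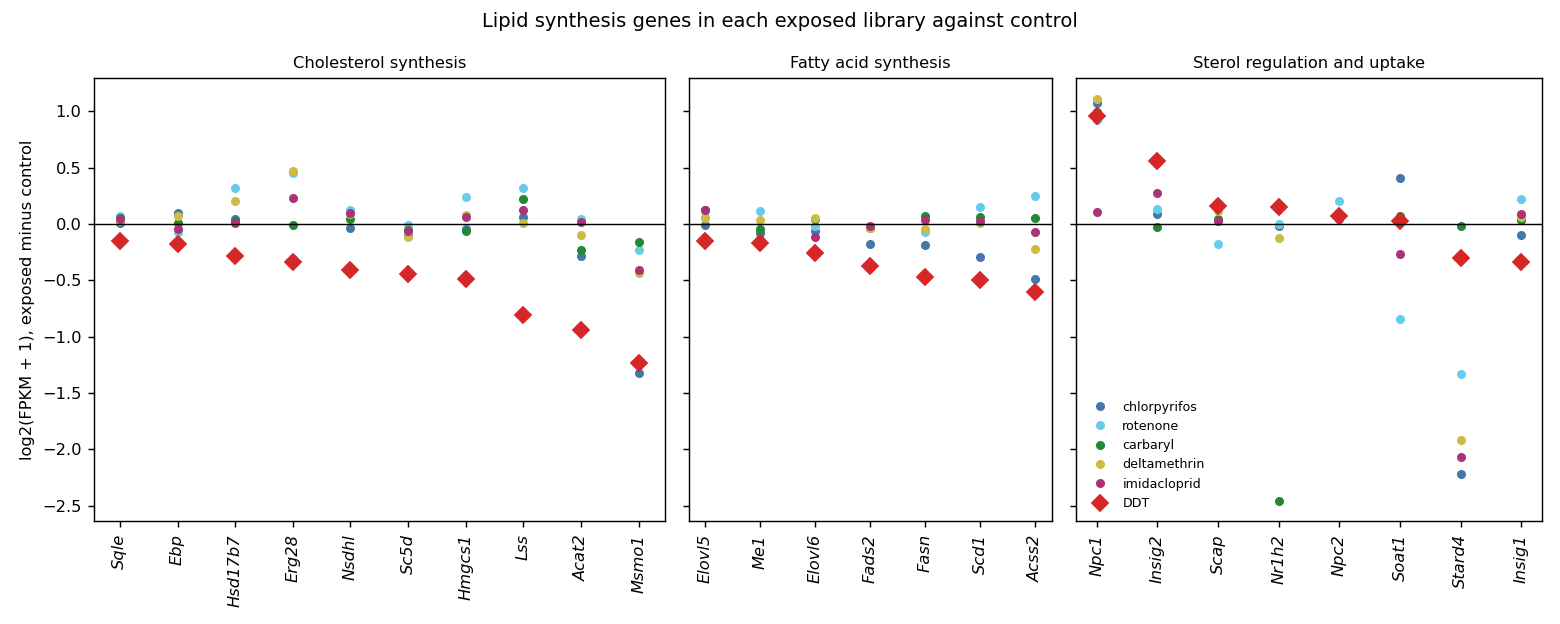
Each point is a gene's log2(FPKM + 1) in 1 exposed library minus control (vertical axis) for most used members of 3 lipid lists (horizontal axis), with DDT as red diamonds. In the cholesterol and fatty acid panels every diamond lies below 0, down to -1.23 for Msmo1, and in the regulation panel the diamonds lie on both sides of 0.

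Fatty acid synthesis and desaturation genes were lower in 7 of 7 used members of 14, and DDT was the lowest library for 7 of 7. The median over these 7 was -0.37. For 5 more members only the larger of the start and end totals could be given, which was higher in 1 and lower in 4. Medians elsewhere ran from -0.18, with chlorpyrifos, to 0.06. Fasn, the fatty acid synthase gene, stood at 61.6 FPKM with DDT and 85.7 in control (-0.47). It was at 75.1 with chlorpyrifos, 81.2 with rotenone, 89.8 with carbaryl, 83.2 with deltamethrin and 87.9 with imidacloprid. The desaturase gene Scd1 stood at 45.7 against 64.8 (-0.49), with 52.6 to 71.9 elsewhere, and Fads2 at 94.7 against 123 (-0.37), with 109 to 121 elsewhere. Acss2, which makes acetyl-CoA from acetate, stood at 8.08 against 12.8 (-0.60), near the 8.82 of chlorpyrifos. The elongase gene Elovl5 differed by -0.15.

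Genes that regulate and move sterols did not share one direction. Of 9 used members of 17, 6 were higher and 3 lower, with a median of 0.07. That median was -0.26 where start and end totals had to agree within 0.1. Insig1, a known SREBP target that holds SREBP in the endoplasmic reticulum, stood at 66.04 FPKM against 83.6 (-0.34), the lowest of 7 libraries. Insig2, which also holds SREBP back, was the highest at 9.58 against 6.21 (0.55), close to the 9.48 of deltamethrin. The start total of Srebf2, the sterol-responsive SREBP gene, was 83.1 against 89.1, within the 67.2 to 96.7 of the other exposed libraries. Npc1 was higher at 15.4 against 7.46, and all 5 other exposed libraries were above control too (8.09 to 17.3). Its start total differed by 1.70 and its end total by 0.48.

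Promoter windows of the lipid genes were searched for a sterol regulatory element (TCACNCCAC) and the CCAAT box that NF-Y binds, both strands. Of the 19 windows of 16 matched cholesterol genes 1 held the former, against 1.24% of all windows, and 14 held CCAAT, 73.7% against 37.4% of all windows. Of the 13 fatty acid windows 0 held the sterol element and 7 held CCAAT (53.8%). CCAAT was also in 34 of the 68 windows of the stress, amino acid and tRNA lists. The lists were drawn up by function and all matched members entered, whatever their difference with DDT. These shares are therefore not a result about DDT. The single match to the sterol element is shown because Hmgcs1 was among the clearest differences, with the match in capitals.
Hmgcs1, chr13:119690188-119690248, plus strand, match at bases -137 to -129: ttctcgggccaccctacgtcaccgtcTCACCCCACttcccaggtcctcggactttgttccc

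The gene for an NF-Y subunit, Nfya, was among the largest differences, at 4.78 FPKM with DDT and 23.7 in control. It was at 22.9 with chlorpyrifos, 17.2 with rotenone, 17.5 with carbaryl, 6.62 with deltamethrin and 17.7 with imidacloprid. With deltamethrin the cholesterol and fatty acid medians were 0.06 and 0.01. Whether the level of Nfya bears on the lipid genes was not tested.

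The known target of DDT could barely be measured. None of 14 voltage-gated sodium channel genes could be used: 5 averaged under 1 FPKM, 6 had no start or end event under their name, and 3 had only a larger end total. Those were Scn8a (3.30 FPKM with DDT, 4.86 in control, 1.86 to 3.37 elsewhere), Scn3a (1.86, 2.93, and up to 2.02 elsewhere, not listed with deltamethrin) and the beta subunit gene Scn3b (5.85, 6.23, and 5.73 to 7.18 elsewhere). All 3 were below control and inside the range of the other exposed libraries. Of 22 calcium and potassium channel genes 4 could be used, with a median of -0.15. Immediate early genes, which depolarised neurons switch on, had a median of 0.07 over 6 used members with DDT, while it was 0.18 to 0.36 in the other exposed libraries. Against the median of those 5 it was -0.20. Of the 6 used members 4 were above control and 2 below, with differences from -0.43 to 0.67. Below control, Fos stood at 2.53 FPKM with DDT and 2.66 in control, the lowest of 7, with 3.26 to 4.74 elsewhere. Nr4a1, also below, stood at 3.76 and 5.43, with 5.21 to 6.81 elsewhere.

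Astrocyte markers went both ways, while the oligodendrocyte markers that could be measured were mostly lower. Of 6 used astrocyte markers of 17, 5 were lower and DDT was the lowest library for 4, with a median of -0.21 (-0.12 to 0.07 elsewhere). Of 6 more with only a larger end total, 3 were higher and 3 lower, and with these the median was -0.12. In bulk RNA, fewer cells of a type and less RNA per cell cannot be told apart. Glul, glutamine synthetase, stood at 122 FPKM with DDT and 148 in control (-0.28), with 137 to 157 elsewhere, and Aldoc at 62.5 and 80.2 (-0.35), with 72.7 to 86.3. Kcnj10, a potassium channel of astrocytes, stood at 15.5 and 19.2 (-0.29), with 17.6 to 23.5. The larger end total of Slc1a3, a glutamate transporter gene, was the highest of 7 at 120 against 90.6. Slc1a2 and Sparcl1 differed by -0.09 and 0.00. Of 15 oligodendrocyte markers 1 could be used and was lower (-0.05). Of 6 more with only a larger end total, 1 was higher and 5 lower. The end total of Olig2, a factor of oligodendrocyte precursors, was 110 with DDT and 161 in control, with 155 to 169 elsewhere, but its start and end totals were unlike. That of Sox10 was 0.861 and 1.75, with 0.961 to 2.11 elsewhere. Other oligodendrocyte genes were low, such as Mbp at 1.33 and 1.42.

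Progenitor and neuronal genes did not share one direction. Of 9 used progenitor markers 4 were higher and 5 lower (median -0.00), and of 8 neuronal markers 3 were higher and 5 lower (median -0.03). Dcx, Nefl and Snap25 differed by -0.08, -0.02 and -0.04. Syt1, a calcium sensor of synaptic vesicles, was called at 12.9 FPKM against 3.07, but the other exposed libraries stood at 11.5 to 14.7, so control was the low library. Stx1a, a synaptic fusion gene, stood at 3.72 against 6.08 (-0.59), with 4.15 to 6.64 elsewhere. Of 9 mesenchymal markers 6 were lower, with a median of -0.13 (-0.13 to 0.29 elsewhere), and the highest level with DDT was 10.1 FPKM, of Col3a1.

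Dividing-cell genes were slightly lower. Of 20 used G2 and mitosis genes of 28, 16 were lower with a median of -0.13, inside the -0.17 to 0.02 of the other exposed libraries, and DDT was the lowest library for 7. Mki67, the proliferation marker, stood at 35.6 FPKM against 52.5 (-0.55), with 42.7 to 48.9 elsewhere, and its start and end totals differed by -0.95 and -0.23. Cyclin B1 (Ccnb1) stood at 30.3 against 60.3 (-0.97), with 34.5 to 62.4 elsewhere. Plk1 and Cdk1 differed by 0.01 and 0.07. The S phase list had a median of -0.08, with 11 of 17 lower, and rotenone had -0.20. Its called member was Chaf1a, described with the single genes.

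**Figure D3:**
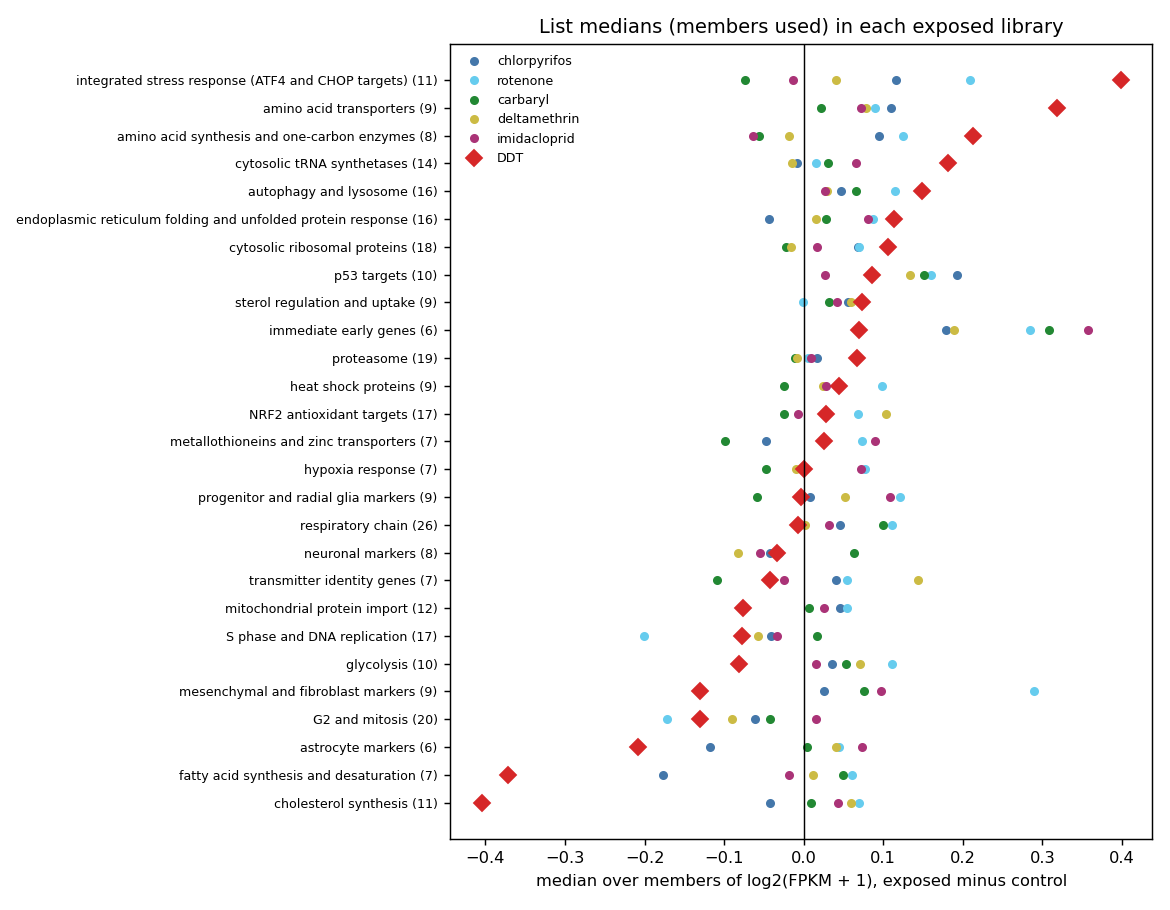
For each list with at least 5 used members (vertical axis, number of members in brackets) the points give the median difference from control on the log2(FPKM + 1) scale in each exposed library (horizontal axis), DDT as red diamonds. DDT lies outside the other 5 for the stress response (0.40, with Gdf15 included) and cholesterol synthesis (-0.40), and inside them for G2 and mitosis (-0.13). It also lies outside them for many other lists, some with medians near 0, such as the proteasome (0.07) and the respiratory chain (-0.01).

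Antioxidant genes under NRF2 did not share one direction, with 10 of 17 used members higher and a median of 0.03. Hmox1, heme oxygenase, stood at 31.0 FPKM against 19.8 (0.62), with 19.1 to 26.7 elsewhere, and G6pdx, which feeds the pentose phosphate pathway, at 19.0 against 8.94 (1.01), with 8.57 to 15.4 elsewhere. The glutathione synthesis genes Gclc and Gclm differed by -0.05 and -0.07. Xenobiotic metabolism had 3 usable members of 20, among them Abcb1b at 1.06 against 1.38. Of the sex steroid receptors and targets 2 of 9 could be used. Gper1, a membrane estrogen receptor gene, stood at 1.81 against 2.82 (-0.44), with 2.35 to 2.59 elsewhere, and Esrra, an orphan receptor gene, at 18.3 against 22.5 (-0.29), with 11.05 to 22.5 elsewhere. The estrogen receptor genes Esr1 and Esr2 had no start or end event under their name.

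Single genes were named where DDT was also outside the range of the other 6 libraries, the mean was at least 5 FPKM and both end totals differed at least 1.5-fold the same way. In all 63 of the 109 called genes had DDT outside the other 6, 20 higher and 43 lower. Over all used genes DDT was the highest library for 17.4% and the lowest for 15.0%, but a called gene lies at an extreme more readily. The same count was not made for the other exposed libraries, so it does not show that DDT was unusual. Among the 12 largest increases, 2 stood well clear of all libraries. Vps35, a retromer subunit gene, stood at 64.4 FPKM with DDT and 22.4 in control, with 25.2 for chlorpyrifos, 24.1 for rotenone, 26.4 for carbaryl, 17.3 for deltamethrin and 19.5 for imidacloprid. Mob4, a kinase-complex adaptor gene, stood at 23.8 against 7.28 (1.58), with 6.68 to 10.8 elsewhere.

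The other increases were shared. Slc2a1, the glucose transporter GLUT1, stood at 22.9 FPKM with DDT and 22.2 with deltamethrin but 2.96 to 4.14 in the remaining 5. For Hras (44.0 against 13.5) and Sar1a (59.0 against 19.2) the control was the low library, since the other exposed stood at 39.7 to 43.2 and 45.7 to 54.7. The Hras start total differed by 2.30 and the end total by 1.19. Against the median of the 5 other exposed libraries the differences of Hras, Sar1a, Heatr3, Rsrc1 and Nars shrank to 0.11, 0.12, 0.12, 0.25 and 0.38. Rpf2, Lamtor1, Hipk1 and G6pdx completed the 12, at 26.7, 61.1, 16.1 and 19.0 FPKM with DDT against 10.96, 26.3, 6.77 and 8.94 in control.

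Among the 12 largest decreases, several stood below all 6 other libraries by a wide margin. Tomm40 (chromosome 7, 19701313 to 19715438), the channel for protein import into mitochondria, stood at 11.2 FPKM with DDT and 76.8 in control (-2.67). It was at 80.2 with chlorpyrifos, 72.1 with rotenone, 42.7 with carbaryl, 77.6 with deltamethrin and 75.8 with imidacloprid. Its 2 totals were far apart with DDT, the start total differing by -4.73 and the end total by -1.92. Other import genes did not follow: the list's median was -0.08, and Tomm20 and Tomm7 differed by -0.03 and -0.08. Chaf1a, a chromatin assembly factor gene, stood at 4.90 against 18.4 (-1.72), with 15.2 to 18.7 elsewhere. Its partner Chaf1b was at 23.5 against 20.95, with its start and end totals differing by -0.27 and 0.84.

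Hjurp, which loads the centromere histone, stood at 16.5 FPKM against 44.5 (-1.38), with 38.7 to 46.4 elsewhere. Pttg1, securin, stood at 4.07 against 12.3 (-1.39), with 9.33 to 17.8 elsewhere, and Anapc11, a subunit of the anaphase-promoting complex that destroys it, at 10.8 against 30.7 (-1.43), with 16.6 to 28.2. Prrc2b stood at 16.7 against 43.2 (-1.32), with 34.6 to 46.2, but on its start total alone it was not called (-0.98, beside -1.77 on the end total). Samd8, a sphingolipid enzyme gene, stood at 2.39 against 8.27 (-1.45), with 7.27 to 11.9. The remaining decreases, Nfya, Zdhhc20, Gpr19, Gtf2h4 and Actr6, ran from -2.10 to -1.52.

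**Figure D4:**
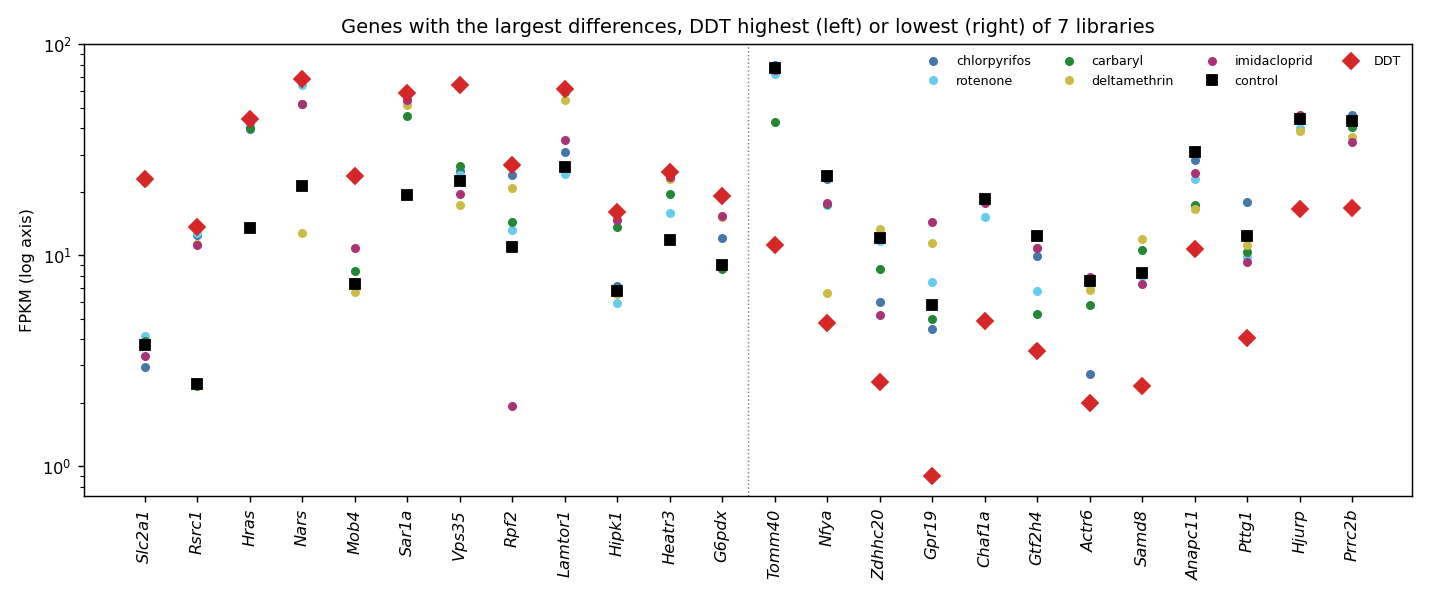
FPKM on a log axis (vertical) in each library for the 12 largest increases (left of the dotted line) and 12 largest decreases (right), with DDT as red diamonds, control as black squares and the other 5 as circles. Mob4 and Vps35 are apart from all circles, while for Hras and Sar1a the black square is the point that lies apart.

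Transcript-structure events differed as often with DDT as with the other insecticides. Of 56308 events of all kinds with at least 1 FPKM on average, 5.97% were 2-fold or more higher with DDT and 5.79% lower, 11.8% together, beside 11.3% to 11.8% in the other 5. Transcript starts were higher in 6.2% and lower in 6.29%, transcript ends in 2.86% and 2.78%, skipped exons in 7.2% and 6.62%, retained introns in 6.35% and 6.84%, and alternative exons in 5.62% and 5.3%. No kind leaned to one direction by more than 1 percentage point.

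Relative use was compared as the percentage of a form among its paired forms, or of a start or end among those of its gene, with a call at 20 percentage points. Inclusion of single skipped exons was called higher in 6.54% of 2583 and lower in 7.24%. Runs of skipped exons were called in 6.73% and 5.5% of 327, and retained introns in 2.84% and 4.11% of 1021. Start shares were called in 4.57% and 4.51% of 14399, and end shares in 1.42% and 1.6% of 6827, counting genes with a single start or end. A single start or end cannot change its share. Elsewhere a rise in one share of a gene brings a fall in others, so the 2 directions are tied. The same switch can then count more than once, also in the counts that follow. Where the 6 other libraries lay within 10 points of each other, DDT alone was called in 103 values, and each other exposed library, treated likewise, in 88 to 105.

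**Figure D5:**
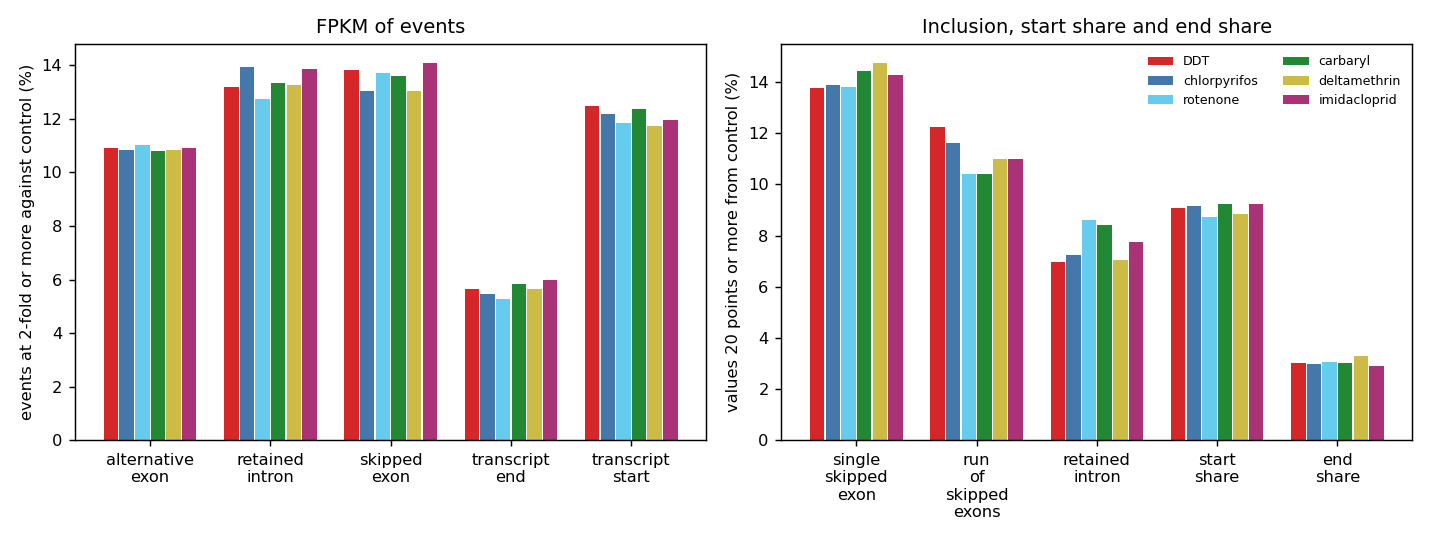
Bars give the percentage of events at 2-fold or more against control (left panel) and of inclusion or share values 20 points or more from control (right panel) for each kind of event and exposed library. DDT, the red bar, is near the others in each kind, such as 13.8% for single skipped exons beside 13.8% to 14.8%.

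Up to 8 of the largest changes in each direction and kind were examined, and those in which the other 6 libraries were close to each other are described first. In Eif4a1, the helicase of cap-dependent initiation, the form retaining an intron (chromosome 11, 69668548 to 69668644) made up 26.3% with DDT and at least 99.8% in the other 6, with summed forms of 24.1 FPKM against 92.0 in control. In Hnrnph1, a splicing factor gene, the form retaining an intron made up 41.1% against 98.2% to 99.3%. In Eif2a, an initiation factor gene that is distinct from the eIF2 subunits, a coding exon of 119 bases (chromosome 3, 58539528 to 58539646) was included at 33.6% with DDT and 91.1% to 98.1% elsewhere. These features were singled out after their values were seen.

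Runs of exons and whole ends differed in other genes. A run of 3 exons in Lars, the leucyl-tRNA synthetase gene, was included at 11.5% with DDT and 99.2% or more elsewhere, while the gene's level was the highest of 7. A run of 2 exons in Ppp2r5c, a phosphatase regulatory subunit gene, was included at 72.6% with DDT and at most 0.0856% elsewhere. In Rtn4, which encodes the neurite growth inhibitor Nogo, a run of 2 coding exons of 2418 bases was included at 0.0211% with DDT and 62.5% to 99.5% elsewhere. One end of Umps, a pyrimidine synthesis gene, held 5.53% of the gene's end total with DDT and 100% elsewhere, and one end of Ssr3, a translocon gene, 1.39% against 99.3% to 99.9%. A start of Tcp1, a chaperonin subunit gene, held 92.2% with DDT and at most 14.2% elsewhere. Whether the deposited FPKM values split reads among such forms correctly was not tested.

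Exons of 2 genes are shown to contrast a change seen with DDT alone and one shared with other libraries, each from the GENCODE M21 transcripts on GRCm38 and entirely coding in a transcript. The exon of G2e3, a ubiquitin ligase gene, was included at 70.3% with DDT, 2.60% in control and at most 4.91% in all 6 others. That of Ptbp1, a repressor of neuronal splicing, was included at 17.4% with DDT and 87.5% in control, with the 6 others from 21.4% to 87.5%.
G2e3, chr12:51363952-51364020, plus strand: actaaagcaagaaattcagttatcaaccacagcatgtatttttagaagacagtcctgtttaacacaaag
Ptbp1, chr10:79860117-79860194, plus strand: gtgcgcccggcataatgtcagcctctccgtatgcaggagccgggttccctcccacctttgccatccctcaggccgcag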

How the data were processed

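The submitters' processing notes name GRCm38, HISAT2 2.0.1, cutadapt 1.9.1 and bcl2fastq 2.17.1.14 without stating their settings. The authors deposited FPKM values per transcript-structure event, and only values above 0 are listed. Which tool computed them was not given in the sources used here. The depth is unknown, so no interval or floor is given. Repeated lines (5388 to 5620 per library) were dropped, and starts and ends were summed by the deposited gene identifier in Python 3.11.15 with pandas 2.3.3. That identifier can cover merged neighbours: 6.57% of matched FPKM stood on a line naming another gene. List members therefore had to lie within 5% of their total matched to GENCODE M21, a check added after seeing the files, which 5799 of 6270 used genes passed. Alternative exons have no paired form and were compared by FPKM only. The named genes are up to 12 in each direction by the rule given above, up to 8 per list by size of difference, cell type markers, sodium channels and 8 events per kind and direction. Members and the 35 lists were chosen with earlier results of these data known. A few list members are counted but not reported by name here. The gene-level differences were checked on control values multiplied by known factors, which tests only the arithmetic. The other steps were not tested on simulated data. Other pseudocounts, filters, gene values, comparators and scalings were tried.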

Additional observations from a re-analysis of the deposited data

How the results depend on the processing

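Without replicates, error cannot be measured. The spread between the 5 other exposed libraries mixes different insecticides with noise, and all differences share 1 control library. FPKM without read counts does not show which low values rest on few reads. No paired analysis was possible because each group has 1 library. Genes 2-fold or more higher and lower, 49 and 60 as reported, numbered 106 and 110 with a pseudocount of 0.1, 23 and 17 with a pseudocount of 5, and 115 and 108 without the filter on the agreement of ends. Lower genes numbered 39 at a mean of at least 5 FPKM and 39 with ends within 0.1. Against the median of the 5 other exposed libraries 23 were higher and 47 lower. The stress response median, 0.40, was 0.10 at a mean of at least 5 FPKM, 0.26 where the 5 other exposed also had to average at least 1 FPKM (added after the data were seen) and 0.14 against the other exposed, and over 15 settings it lay between 0.10 and 0.41. The cholesterol median, -0.40, was -0.49 against the other exposed and lay between -0.49 and -0.36. The fatty acid median, -0.37, was -0.26 without the agreement filter and lay between -0.38 and -0.26. The sterol regulation median turned from 0.07 to -0.26 with ends within 0.1 and to -0.10 with the larger end total, a setting added after the data were seen, and the p53 median from 0.09 to -0.019 against the other exposed. Of the values of named genes under an alternative, 222 moved by less than the SD of the 5 other exposed libraries and 37 by more, and none whose reported size exceeded that SD changed sign. Events 2-fold or more higher and lower numbered 1246 and 1188 with a pseudocount of 5, and 1575 and 1418 at a mean of at least 5 FPKM, against 3360 and 3258. Called inclusion values, 467 as reported, numbered 243 at a minimum of 10 FPKM, 740 at 2 FPKM, 951 at a call of 10 points and 746 with unlisted forms as 0. Called start shares, 1308, numbered 786 at 10 FPKM and 2557 at 10 points. Called end shares, 206, numbered 121 at 10 FPKM, 317 at 2 FPKM, 443 at 10 points and 131 against the other exposed.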

Other observations

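Autophagy and lysosome genes were higher in 13 of 16 used members with a median of 0.15 (0.03 to 0.11 in the other exposed libraries), among them the lysosomal protease gene Ctsd at 47.8 FPKM with DDT against 37.8 in control, with 35.1 to 42.1 elsewhere. Map1lc3a, an autophagosome gene, went the other way at 21.2 against 30.5, with 25.5 to 33.8 elsewhere. Ribosomal protein genes were higher in 15 of 18 used members with a median of 0.11 (-0.02 to 0.07 elsewhere). Glycolysis genes were lower in 8 of 10 used members with a median of -0.08 (0.02 to 0.11 elsewhere), and DDT was the lowest library for 6. Pgk1 stood at 244 FPKM against 257, with 260 to 281 elsewhere. The list's called member went the other way: Slc2a1 stood at 22.9 against 3.74 (2.33), close to the 22.2 of deltamethrin. Proteasome (0.07), p53 target (0.09), heat shock (0.04), metallothionein and zinc transporter (0.03), hypoxia (0.00), respiratory chain (-0.01) and transmitter identity (-0.04) genes had medians near 0.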
